A study of Mus musculus with 7 samples.

Results

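Extracellular metalloproteinases and their tissue inhibitors were examined in bone marrow mesenchymal stromal cells of mice. They comprise the matrix metalloproteinases (MMP), the membrane-anchored ADAM proteins, the secreted ADAMTS proteins with their ADAMTS-like relatives, and the TIMP inhibitors. The members were all genes of the count tables with symbols of the form Mmp, Adam or Adamts with their number or letters, and Timp1 to Timp4. Mmp8 and Mmp9, which neutrophils make in quantity, were outside the rule, and Mmp1a was left out because GENCODE calls it a polymorphic pseudogene. This gave 81 of 53801 genes, of which 20 were MMP, 4 TIMP, 33 ADAM, 19 ADAMTS and 5 ADAMTS-like genes.

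The mice were male C57BL/6 animals, 8 weeks old when treatment began. The control group received 100 µl DPBS (a buffered saline) and the treated group 100 µl of an inhibitor of fibroblast activation protein, called FAPi here, at 500 µg/kg. Both were injected into the abdominal cavity daily for 35 days. The sources used here do not name the inhibitor. Fibroblast activation protein is a serine protease of the cell surface and is not itself one of the members. Whether the inhibitor acts on any member was not tested. From limb bones, 7000 live cells that carried Pdgfra and lacked CD45, Ter119 and Tie2 were sorted per sample. The series has 3 DPBS and 4 FAPi libraries, and its design text counts the same numbers of mice.

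MMPs are zinc proteases that are made as inactive precursors and cut collagens, gelatin and other matrix proteins. ADAM proteins cut the outer parts of membrane proteins, a process called shedding, and some members have lost their catalytic site and serve in adhesion. ADAMTS proteins are secreted and trim procollagens or cut proteoglycans, while ADAMTS-like proteins lack the protease part and bind the matrix. TIMPs block the active sites of MMPs and of some ADAM and ADAMTS proteases. In bone marrow, stromal and bone-forming cells are known sources of these proteins, and Mmp13 is a collagenase known for its role in bone and growth cartilage.

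Total counts ranged from 7492570 to 10569690 per library. Levels are CPM, counts scaled to a common library total after correction by TMM factors. These adjust library totals for a few very abundant genes. The factors ran from 0.841 in FAPi replicate 2 to 1.19 in DPBS replicate 1. The stromal markers were high, with Pdgfra at 317 to 440 CPM and Lepr at 1354 to 1904 CPM, and all 10 of that list were tested. Osteoblast markers were high too. The 10 of that list summed to 17175 to 28480 CPM in DPBS and 14880 to 26260 CPM in FAPi libraries, with Ibsp at 10060 to 17349 CPM. The part of bone-forming cells in the levels of the members was not tested. Tek, which encodes Tie2, reached at most 1.60 CPM and Ptprc, which encodes CD45, at most 5.28 CPM. Transcripts of blood cells were also present. In such bulk samples fewer cells of a type and less RNA per cell cannot be told apart. The summed level of 15 neutrophil markers was 657 to 2663 CPM in DPBS and 191 to 650 CPM in FAPi libraries, with Ly6g at 0. That of 12 erythroid markers was 1927 to 16383 CPM in DPBS, highest in replicate 2, and 1662 to 3408 CPM in FAPi libraries, with none at 0.

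Promoter sequences are shown first for 4 members, chosen to show both CG-poor and CG-rich stretches. Each is the stretch of 250 bases before the RefSeq start of the gene (build GRCm38.p6), printed 5′ to 3′ on the gene's strand, which is the plus strand for all 4. Mmp13 lies at chr9:7272264-7272513, Mmp3 at chr9:7445572-7445821, Adamts2 at chr11:50601835-50602084 and Adam10 at chr9:70678732-70678981. Capitals mark matches to 3 short motifs. The AP-1 motif, bound by Fos and Jun factors, was searched as TGANTCA on both strands. The core motif of Runx factors was searched as TGTGGT, also on both strands, so that its reverse complement counts as a match. The TATA box was searched as TATAAA on the gene strand only. The motifs share no letters in these stretches.
Mmp13: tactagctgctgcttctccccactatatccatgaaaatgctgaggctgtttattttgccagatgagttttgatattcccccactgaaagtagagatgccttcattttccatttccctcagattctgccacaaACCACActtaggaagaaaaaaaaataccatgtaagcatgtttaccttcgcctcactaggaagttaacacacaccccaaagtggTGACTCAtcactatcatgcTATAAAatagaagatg
Mmp3: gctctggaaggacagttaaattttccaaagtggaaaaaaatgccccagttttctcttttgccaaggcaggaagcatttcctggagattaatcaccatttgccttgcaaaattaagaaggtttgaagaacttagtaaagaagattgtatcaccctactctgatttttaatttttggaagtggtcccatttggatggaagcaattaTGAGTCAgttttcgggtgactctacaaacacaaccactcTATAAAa
Adamts2: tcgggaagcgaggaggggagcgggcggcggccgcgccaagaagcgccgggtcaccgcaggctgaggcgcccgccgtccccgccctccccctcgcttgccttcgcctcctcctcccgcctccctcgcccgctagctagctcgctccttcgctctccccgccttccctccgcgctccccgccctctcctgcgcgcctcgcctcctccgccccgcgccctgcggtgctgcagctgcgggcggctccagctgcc
Adam10: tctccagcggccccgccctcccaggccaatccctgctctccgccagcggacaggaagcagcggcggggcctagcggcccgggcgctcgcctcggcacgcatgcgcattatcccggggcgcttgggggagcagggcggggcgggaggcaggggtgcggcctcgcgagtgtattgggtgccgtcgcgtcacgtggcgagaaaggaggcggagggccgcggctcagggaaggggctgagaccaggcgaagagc

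The Mmp13 and Mmp3 stretches each hold 1 CG dinucleotide and 40.4% and 37.6% G or C, against 34 and 29 CG dinucleotides and 78.0% and 74.0% G or C in Adamts2 and Adam10. Mmp13 had a match to each of the 3 motifs, with the first bases of the Runx (on the other strand), AP-1 and TATA matches at -118, -35 and -16 from the start. Mmp3 matched the AP-1 motif at -46 and the TATA box at -7, and the Adamts2 and Adam10 stretches held none of the 3. RefSeq promoters matched 51 of the 81 members. Among all 27025 genes of that table, 7.82% hold the AP-1 motif, 15.9% the Runx core and 8.94% the TATA box in the same stretch. A match describes these letters only.

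Part of the gene family was not detected in these cells. A count of 0 in every library was found for 25 members, and 3 more (Mmp10, Adam4 and Adam30) had at most 3 counts in every library. A count of 0 allows a level of up to 0.269 to 0.419 CPM, taken as 3 counts in the deepest and shallowest library, and covers counting error only. The members without a count included the matrilysin Mmp7, the macrophage elastase Mmp12, the collagenase Mmp1b, the enamel protease Mmp20 and Mmp24. They also included Adamts13, which cuts von Willebrand factor, Adamts8, Adamts16, Adamts19, Adamts20 and Adamtsl2. The other 14 were ADAM genes, most of them known from testis: Adam1a, Adam1b, Adam6a, Adam6b, Adam7, Adam11, Adam18, Adam24, Adam25, Adam26a, Adam26b, Adam29, Adam34 and Adam39. Of the 25, 7 share exon sequence with another gene, Adam1a with Mapkapk5 on the same strand among them, and reads from such stretches may not have been counted.

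Tested members, those that passed a filter on low counts applied to all genes, numbered 38. They were 10 of 20 MMP, 4 of 4 TIMP, 9 of 33 ADAM, 12 of 19 ADAMTS and 3 of 5 ADAMTS-like genes. The remaining 15 members had over 3 counts in at least 1 library but did not pass the filter. The CG content before the start differed between these classes. The median was 17.5 CG dinucleotides for the 24 tested members with a promoter, 1 for the 16 members without a count, and 6 over all genes of the table. At most 3 CG dinucleotides were found in 3 of the 24 tested members (Mmp13, Mmp3 and Timp4) and in 11 of the 16 members without a count. Mmp24 and Adamts20, with 33 and 32, had no count despite CG-rich stretches. The AP-1 motif was present in 3 of the 24 tested members (12.5%) and in 6 of the 16 members without a count (37.5%). Among the latter, Mmp1b, Mmp7, Mmp12 and Mmp20 are neighbours on chromosome 9. Some members had more than 1 stretch, and so more room for a match, such as Adam19 with 3 and Mmp7 and Mmp12 with 2 each.

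**Figure D1:**
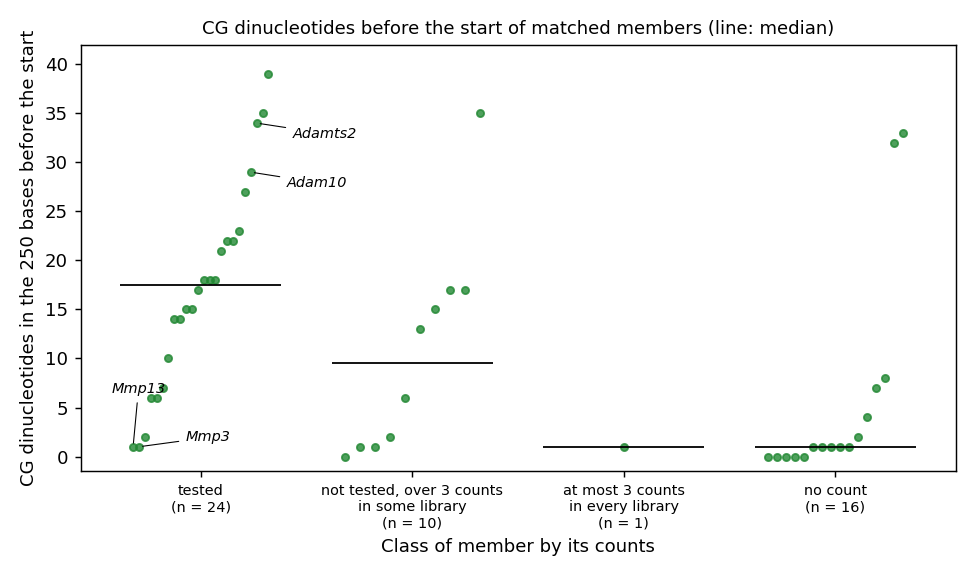
Number of CG dinucleotides in the 250 bases before the start (vertical axis) for the 51 members with a RefSeq promoter, in 4 classes by their counts (horizontal axis); each point is a gene and the line is the class median. The 24 tested members have a median of 17.5 and the 16 members without a count a median of 1, while Mmp13 and Mmp3 stand at 1 among the tested members.

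Per kilobase of exon, which allows a rough comparison of levels between genes, a handful of members carried most of the signal. The length used was that of all annotated exons of a gene together, so the order and the shares depend on the annotation. The first 5, Mmp13, Timp1, Timp2, Adam10 and Adamts2, held 63.8% of the members' summed level, and the first 8, with Mmp23, Mmp14 and Adamtsl3, held 81.3%. Mmp13 had a mean of 122 CPM per kb (96.3 to 152 over the 7 libraries). It was followed by Timp1 at 96.6 (61.8 to 165), Timp2 at 79.7 (60.0 to 112), Adam10 at 79.2 (39.5 to 146) and Adamts2 at 57.6 CPM per kb (48.0 to 67.0). The ranges of neighbours in this order overlapped, so the order of the first 5 is that of the means only. Mmp23 at 51.3 and Mmp14 at 44.1 CPM per kb came next, and after Adamtsl3 at 23.6 the levels fell to 17.4 for Adam9 and below. The gelatinase Mmp2 had 11.6 CPM per kb and its known cell surface activator Mmp14 44.1. At the low end of the tested members, Adamts6 had 0.150 CPM per kb.

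**Figure D2:**
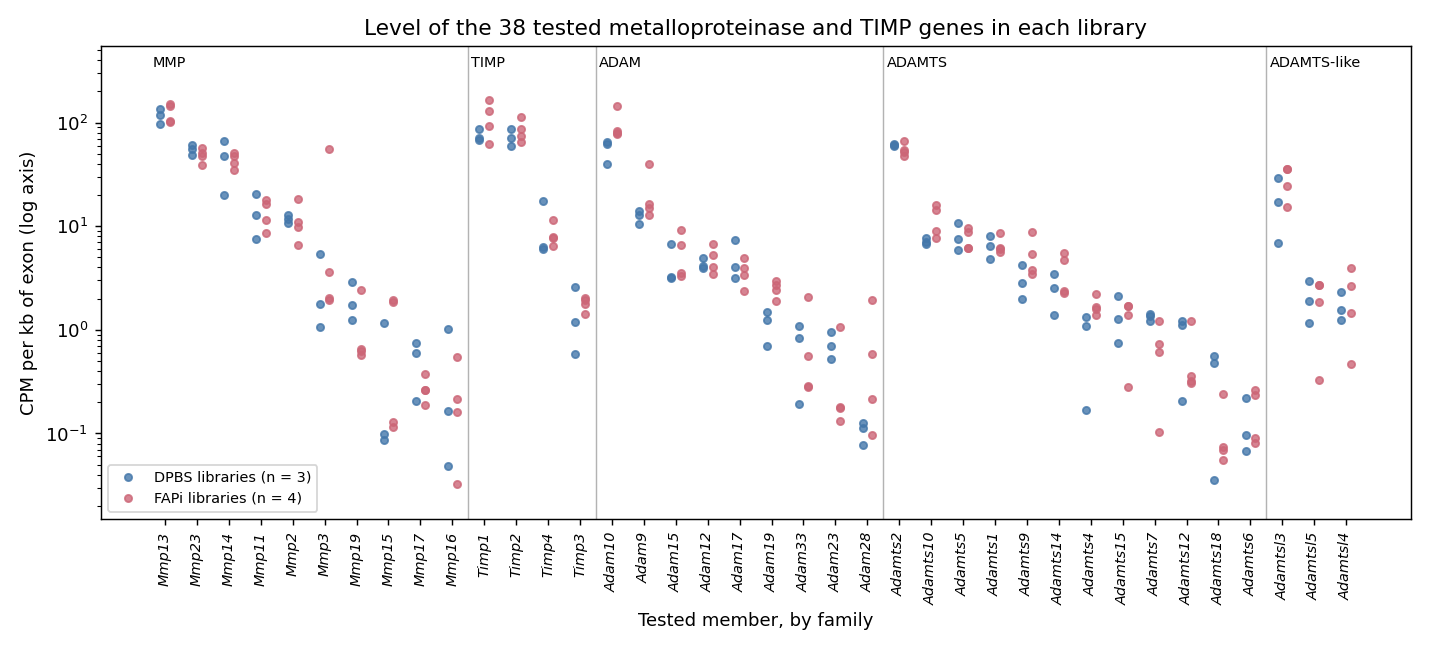
Level in CPM per kb of exon (log axis) of the 38 tested members, ordered by family and mean; each point is 1 library, blue for the 3 DPBS and red for the 4 FAPi libraries. Mmp13, Timp1, Timp2, Adam10 and Adamts2 lead, and 1 FAPi library stands far above the others at Mmp3.

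The comparison asks how the level of each member differed after 35 days of FAPi. No member passed the threshold (an adjusted p under 0.05 over 12930 tested genes, edgeR quasi-likelihood test) in either direction, as for the tested genes at large, of which 0.00% were called higher and 0.00% lower. The smallest adjusted p of a member was 0.547. An unadjusted p under 0.05 was reached by 2 members of 38 (Adam10 and Adam28, both higher in estimate), against 8.14% of all tested genes. DESeq2 called 0 of the 36 members to which it gave an adjusted p, against 1.10% of the genes it tested. Estimates were higher in FAPi for 22 members and lower for 16, with a median log2 difference of 0.14 against 0.01 over all tested genes. With library totals as the only scaling, which lowered the median of all tested genes to -0.16, the members divided into 17 higher and 21 lower with a median of -0.06, and higher estimates fell from 50.6% to 40.0% of all genes.

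**Figure D3:**
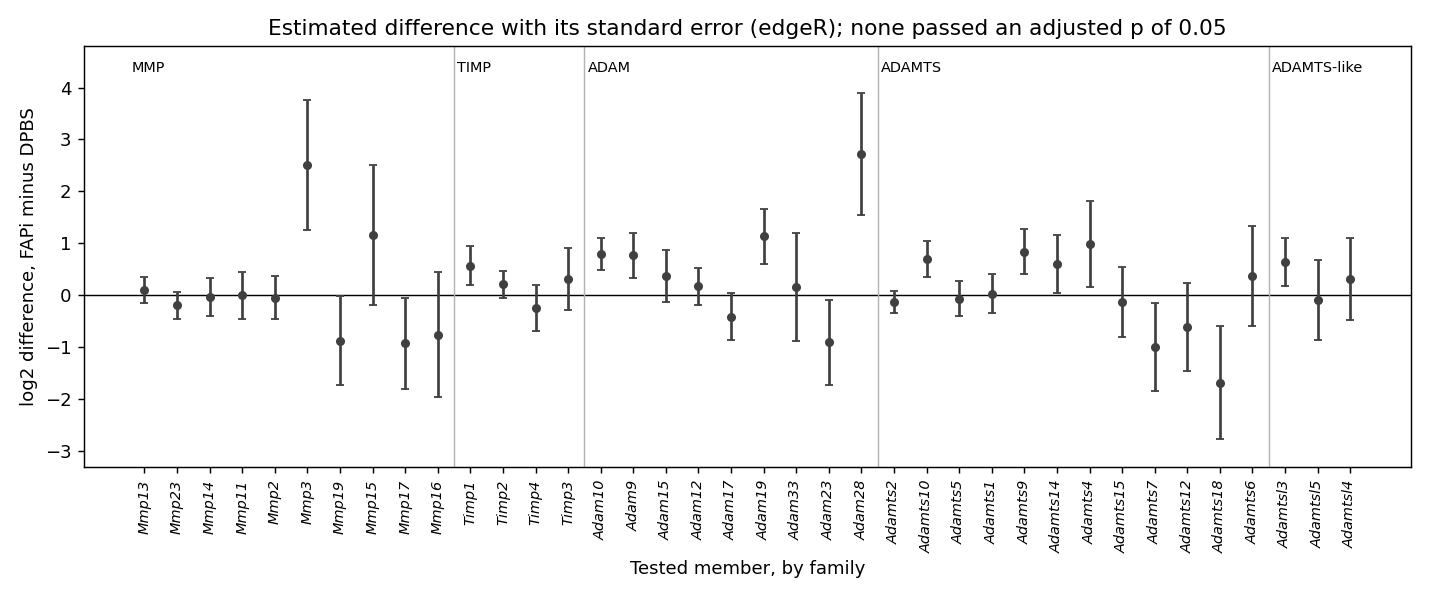
Log2 difference between FAPi and DPBS (vertical axis, edgeR) with its standard error for the 38 tested members, ordered as in the plot of levels. The estimates lie on both sides of 0, none passed the threshold, and the largest, Adam28 and Mmp3, have wide errors. Mmp3 is high in 1 library, while Adam28 is highest in FAPi replicate 2 and also above all DPBS values in FAPi replicates 3 and 4.

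Among the MMPs, which are secreted or membrane-bound matrix proteases, the collagenase Mmp13 was the most abundant per kb. Mmp13 (ENSMUSG00000050578.10, chromosome 9, 7272514 to 7283331, mm10) had 313, 257 and 365 CPM in DPBS replicates 1 to 3 and 274, 407, 387 and 274 CPM in FAPi replicates 1 to 4. The DPBS values lay within the FAPi range but for replicate 2. Its log2 difference was 0.10 ± 0.25 (SE, adjusted p = 0.959, edgeR). Mmp14, the membrane-type protease that activates Mmp2 and cuts collagen (ENSMUSG00000000957.11, chromosome 14, 54431612 to 54445364), had 283, 120 and 394 CPM in DPBS and 209, 241, 286 and 305 CPM in FAPi libraries. The lowest and the highest library were both DPBS, and the log2 difference of -0.03 ± 0.36 became -0.38 without DPBS replicate 2 and 0.37 without DPBS replicate 3. Mmp2 had 36.6, 40.0 and 42.9 CPM in DPBS and 22.2, 37.0, 33.2 and 62.1 CPM in FAPi libraries. The FAPi values lay on both sides of the DPBS values. Mmp23 ranged from 115 to 143 CPM in DPBS and from 90.4 to 133 CPM in FAPi libraries (log2 difference -0.19 ± 0.26). Mmp11, the stromelysin known from fibroblasts around tumors, ranged from 20.9 to 56.5 and from 23.8 to 50.3 CPM (0.00 ± 0.45), and it shares exon sequence with Chchd10 on the other strand.

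Lower MMPs were Mmp19, with 4.43 to 10.1 CPM in DPBS and 2.01, 2.20, 2.33 and 8.52 CPM in FAPi libraries (log2 difference -0.87 ± 0.85), and the GPI-anchored Mmp17, with 1.37 to 4.99 and 1.26 to 2.46 CPM (-0.92 ± 0.88). Both had adjusted p-values of 0.842 and 0.836 (edgeR), and the groups overlapped at each. Mmp19 shares exon sequence with genes on the other strand. The strand setting of the counts is not stated, so how reads from the shared stretches were counted is not known. The membrane-type Mmp15 was at 6.34 CPM in DPBS replicate 2 and at 10.1 and 10.5 CPM in FAPi replicates 2 and 4, and at most 0.699 CPM in the other 4 libraries. Mmp16 ranged from 0.279 to 8.76 CPM. The MMPs had 606 to 996 summed CPM in DPBS and 652 to 925 CPM in FAPi libraries, and 4 of the 10 tested had a higher estimate, 2 with library totals as the only scaling.

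Mmp3, stromelysin 1, which cuts many matrix proteins and activates other MMPs, was set apart by 1 library. Its values were 9.76, 1.90 and 3.20 CPM in DPBS and 3.51, 3.62, 6.52 and 99.9 CPM in FAPi libraries, the last being replicate 4. Without that library the 3 FAPi values lay within the DPBS range, and the log2 difference of 2.51 ± 1.25 (adjusted p = 0.647, edgeR) became -0.12. The same library had the highest sum of chondrocyte markers, 194 CPM against 87.2 to 105 CPM in the other FAPi and 74.2 to 94.2 CPM in DPBS libraries. Of the 10 markers 4 were tested (3 higher and 1 lower in estimate), Col10a1, Matn1 and Matn3 were at 0, and Col2a1 reached 53.9 CPM in that library. The part of such cells in the level of Mmp3 was not tested.

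Mmp3 and Mmp13 belong to a run of neighbouring MMP genes on chromosome 9 (7272514 to 7699585, mm10), in which 8 members lie within 61.2 kb of the next. Their order is Mmp13, Mmp12, Mmp1b, Mmp3, Mmp10, Mmp27, Mmp20 and Mmp7. Only members were placed, so MMP genes left out of the members, such as Mmp8 and Mmp1a, are not in this order. Of the 8 members, only Mmp13, at a mean of 325 CPM, and Mmp3, at 18.4 CPM, were tested. Mmp12, between them and 61.0 kb from Mmp13, had no count, as had Mmp1b, Mmp20 and Mmp7. Mmp10 had a mean of 0.0399 CPM. Mmp27 had 21 counts in DPBS replicate 2 and at most 1 in every other library.

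All 4 TIMP genes were tested and none passed. Timp2, which also takes part in the activation of Mmp2 by Mmp14, had 341, 234 and 280 CPM in DPBS and 437, 256, 336 and 292 CPM in FAPi libraries. The groups overlapped (log2 difference 0.21 ± 0.26, adjusted p = 0.891, edgeR). Timp1 (ENSMUSG00000001131.11, chromosome X, 20870166 to 20874735) had 77.1, 60.7 and 63.2 CPM in DPBS and 54.9, 81.6, 147 and 116 CPM in FAPi libraries. Of the FAPi values 3 lay above all DPBS values and 1 below them, and the log2 difference was 0.57 ± 0.37 (adjusted p = 0.727) and 0.33 without FAPi replicate 3. Timp4 had 37.1, 35.3 and 103 CPM in DPBS and 38.2, 45.0, 46.0 and 68.0 CPM in FAPi libraries. Its estimate of -0.25 ± 0.45 turned to 0.45 without DPBS replicate 3, the high library. Timp3, which binds to the matrix and blocks ADAM17 and the ADAMTS proteoglycan-cutting enzymes, was the lowest, with 9.68, 21.1 and 4.71 CPM in DPBS and 14.6, 16.4, 16.0 and 11.6 CPM in FAPi libraries. Its estimate of 0.31 ± 0.60 was 1.02 without DPBS replicate 2 and -0.08 without DPBS replicate 3. Timp3 and Timp4 share exon sequence with Syn3 and Syn2 on the other strand. TIMP genes summed to 137 to 182 CPM per kb in DPBS and 167 to 261 in FAPi libraries, against 204 to 290 and 203 to 298 for the MMPs.

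The ADAM genes held the 3 members with the smallest p-values of all. Adam10, the sheddase of Notch receptors and many adhesion proteins (ENSMUSG00000054693.14, chromosome 9, 70678997 to 70780229), had 194, 309 and 320 CPM in DPBS and 409, 717, 382 and 394 CPM in FAPi libraries. Every FAPi value lay above every DPBS value, and FAPi replicate 2 was far above the rest. The means were 274 ± 69.6 (SD, n = 3) and 476 ± 161 CPM (SD, n = 4), a log2 difference of 0.80 ± 0.31 with an unadjusted p of 0.0250 (adjusted p = 0.547, edgeR). Without FAPi replicate 2 the log2 difference was 0.52. Adam19, another sheddase with a known role in heart development, had 10.5, 4.96 and 8.76 CPM in DPBS and 17.3, 19.3, 21.0 and 13.4 CPM in FAPi libraries. Here too the groups were apart (log2 difference 1.13 ± 0.53, adjusted p = 0.627), and Adam19 overlaps antisense genes. With library totals as the only scaling both genes still had separate groups, at 321 against 370 CPM for the nearest libraries of Adam10 and 12.4 against 12.8 CPM for those of Adam19.

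Of the 38 tested members, groups did not overlap at 3 with FAPi above (Adam10, Adam19 and Adamts4), where 3.39% of all tested genes have this pattern, and at 1 with FAPi below (Adamts7), where 3.95% have it. Leaving out 1 library in turn gave 3 to 7 tested members above and 1 to 3 below, beside 5.32% to 7.63% and 5.90% to 8.53% of all tested genes. At Adamts4, an enzyme that cuts aggrecan, the DPBS values were 0.806, 6.44 and 5.28 CPM and the FAPi values 10.7, 8.01, 6.76 and 7.68 CPM. At Adamts7, known to cut the cartilage protein COMP, they were 8.51, 8.87 and 7.73 against 7.66, 0.646, 3.84 and 4.61 CPM. In both genes the nearest libraries of the 2 groups were almost level, and with library totals as the only scaling the groups overlapped. Adamts7 shares exon sequence with Tbc1d2b on the other strand.

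**Figure D4:**
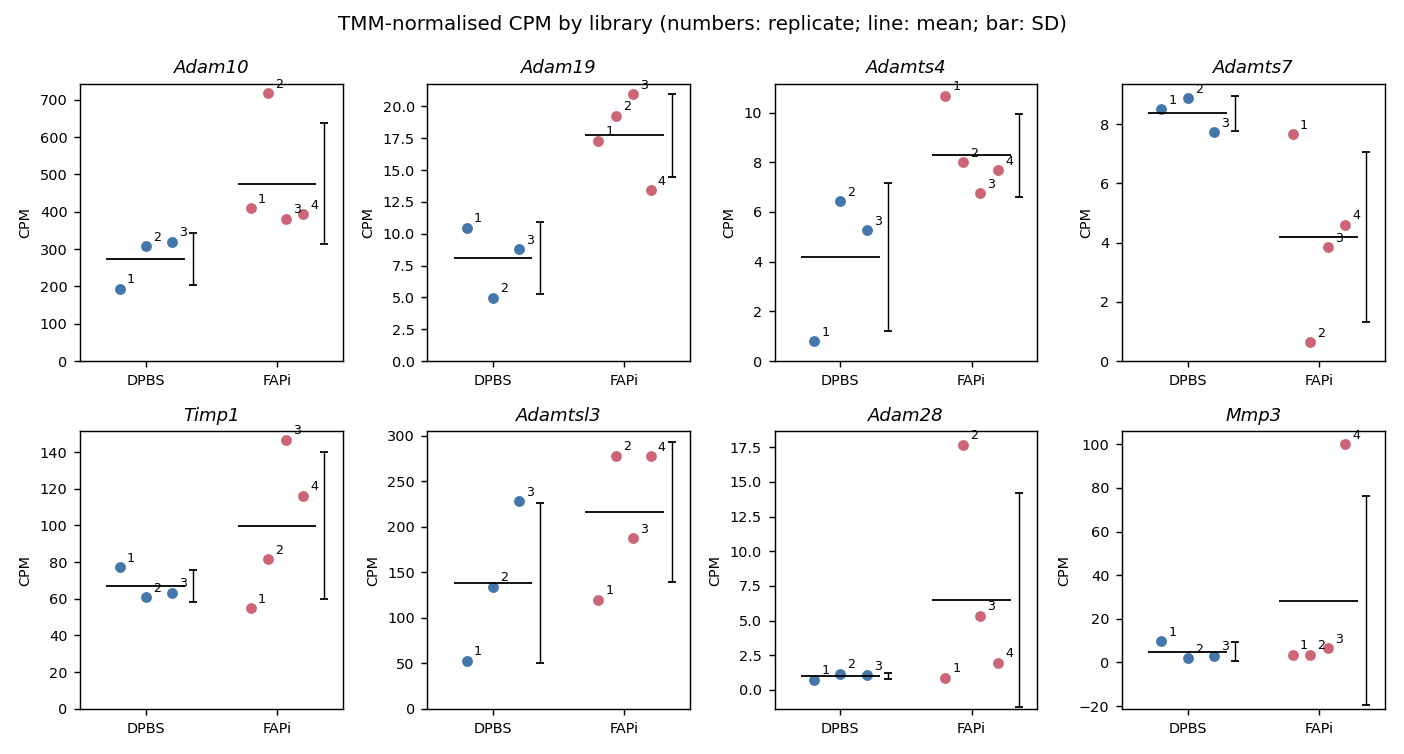
TMM-normalised CPM (vertical axis, linear) of 8 members in each library; points are libraries numbered by replicate, the line is the group mean and the bar the SD (n = 3 DPBS, n = 4 FAPi). The groups are apart at Adam10, Adam19, Adamts4 and Adamts7, nearly touch at the last 2, and overlap at Timp1, Adamtsl3, Adam28 and Mmp3.

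Adam28, a member known from lymphocytes, had the largest estimate. Its values were 0.717, 1.16 and 1.04 CPM in DPBS and 0.879, 17.7, 5.36 and 1.95 CPM in FAPi libraries. FAPi replicate 1 lay within the DPBS range and replicate 2 was highest. The log2 difference of 2.72 ± 1.18 (adjusted p = 0.582, edgeR) became 1.48 without FAPi replicate 2. The 9 B cell markers summed to 616 to 1042 CPM in DPBS and 745 to 1179 CPM in FAPi libraries, with none at 0 in all libraries. Ebf1, which marrow stroma also expresses, made 587 to 954 CPM of these sums. The other 8 markers summed to 28.3, 295 and 19.7 CPM in DPBS and 318, 26.8, 31.2 and 19.8 CPM in FAPi libraries. They were thus high in DPBS replicate 2 and FAPi replicate 1, and not in FAPi replicate 2, where Adam28 was highest. The part of B cells in the level of Adam28 was not tested.

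The other ADAM genes had estimates of either sign, with none past the threshold. Adam17, the sheddase of tumor necrosis factor, had 52.8, 22.5 and 28.8 CPM in DPBS and 35.5, 24.2, 16.9 and 28.1 CPM in FAPi libraries. The highest value was DPBS replicate 1, and the log2 difference of -0.41 ± 0.45 was 0.02 without it. Adam12, known from muscle and bone-forming cells, ranged from 41.7 to 51.9 and from 36.2 to 71.5 CPM (0.17 ± 0.36). Adam15 ranged from 19.3 to 41.5 and from 20.4 to 56.4 CPM (0.37 ± 0.50, 0.04 without FAPi replicate 1 and 0.83 without DPBS replicate 1). Adam23, which lacks a working catalytic site and binds integrins, had 9.41, 17.2 and 12.4 CPM in DPBS and 3.14, 3.23, 19.0 and 2.37 CPM in FAPi libraries. In FAPi 3 values were below all DPBS values and replicate 3 above them, and the log2 difference of -0.91 ± 0.82 was -2.15 without that replicate. Adam33 ranged from 1.04 to 5.91 and from 1.51 to 11.2 CPM (0.17 ± 1.04, -0.91 without FAPi replicate 4 and 0.62 without DPBS replicate 1). ADAM genes summed to 424 to 501 CPM in DPBS and 558 to 972 CPM in FAPi libraries. Adam10 was the largest contributor in each library. Of the 9 tested, 7 had a higher estimate, and 5 with library totals as the only scaling.

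Adam9, a sheddase widely expressed in stromal cells (ENSMUSG00000031555.15, chromosome 8, 24949611 to 25016927, minus strand), had 57.2, 43.0 and 53.3 CPM in DPBS and 166, 62.2, 52.8 and 68.1 CPM in FAPi libraries. FAPi replicate 1 stood apart, and the log2 difference of 0.77 ± 0.44 (adjusted p = 0.695, edgeR) was 0.25 without it. The same library had the highest sum of 10 endothelial markers, 388 CPM against 34.0 to 167 CPM in the other 6. Kdr alone made 340 CPM of that sum, against 3.17 to 15.5 CPM in the other libraries, and Tek was at 0. Each of the other markers had its highest value in another library. Of that list 9 were tested, 7 higher and 2 lower in estimate, and none was at 0 in all libraries. DPBS libraries summed to 47.3 to 130 CPM, and the part of endothelial cells in the level of Adam9 was not tested.

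Downstream of Adam9 on its strand lie Adam32, 806 bases away, Adam5, 11.8 kb beyond Adam32, Adam3, 1.24 kb beyond Adam5, and Adam18. Apart from Adam9 these are known from testis, and none was tested. Adam32 had 3, 2 and 11 counts in DPBS and 44, 51, 3 and 0 counts in FAPi libraries. Adam5 had 10, 4 and 4 counts in DPBS and 22, 31, 2 and 1 counts in FAPi libraries. Both were thus highest in FAPi replicates 1 and 2, the former of which was also highest for Adam9. In FAPi replicate 1 the levels were 166 CPM for Adam9, 5.52 for Adam32, 2.76 for Adam5, 0.126 for Adam3 and 0 for Adam18. Adam3 had its highest value elsewhere, 20 counts in DPBS replicate 3.

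**Figure D5:**
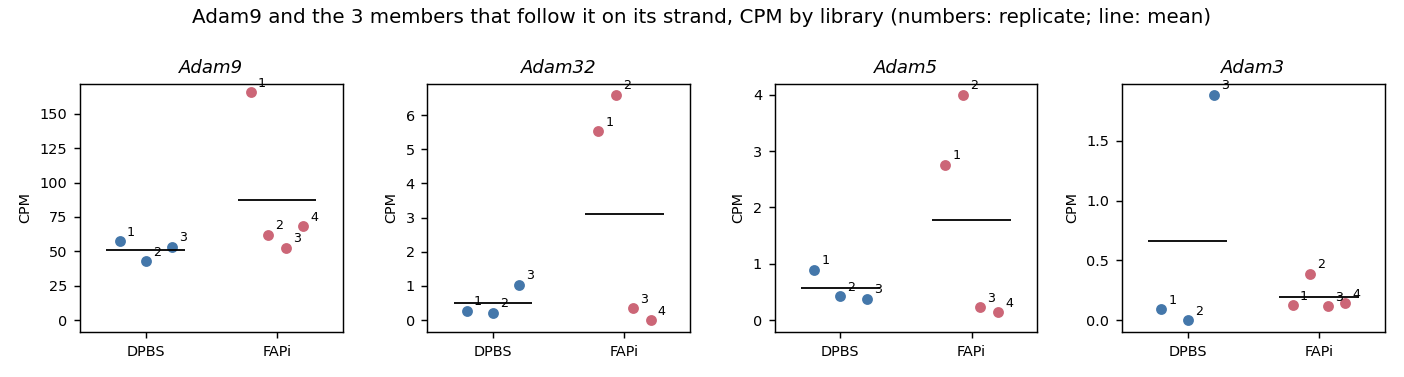
TMM-normalised CPM (vertical axis, linear) of Adam9 and of Adam32, Adam5 and Adam3, in the order in which they follow it on the minus strand; points are libraries numbered by replicate and the line is the group mean. Adam32 and Adam5 are both highest in FAPi replicates 1 and 2, and Adam9 is highest in FAPi replicate 1.

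The ADAMTS genes were led by Adamts2, the enzyme that removes the amino-terminal propeptide of fibrillar procollagens. Adamts2 (ENSMUSG00000036545.8, chromosome 11, 50602084 to 50807573) had 576, 568 and 551 CPM in DPBS and 489, 448, 626 and 505 CPM in FAPi libraries. Of the FAPi values 3 lay below all DPBS values and 1 above them (log2 difference -0.13 ± 0.21, adjusted p = 0.924, edgeR). Its coefficient of variation over the 7 libraries was 11.2%, against a median of 35.7% for the 19 members of at least 20 CPM and 38.4% for all 6154 tested genes of at least 20 CPM. Adamts2 had the highest mean CPM of the members, and these sets were not matched to its level. The related procollagen enzymes were lower, Adamts14 at 7.29 to 28.9 CPM and Adamts3 at no more than 2.07 CPM and not tested.

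The proteoglycan-cutting ADAMTS enzymes were present at lower levels. Adamts5, the main aggrecan-cutting enzyme of mouse cartilage, had 116, 62.9 and 80.6 CPM in DPBS and 103, 67.2, 66.9 and 94.4 CPM in FAPi libraries (log2 difference -0.06 ± 0.33). Adamts1, its neighbour 53.1 kb away on chromosome 16 and on the same strand, ranged from 25.5 to 42.7 and from 29.9 to 45.6 CPM (0.03 ± 0.38). Adamts9 had 63.2, 42.9 and 29.6 CPM in DPBS and 57.4, 52.3, 133 and 81.5 CPM in FAPi libraries. Its groups overlapped, and the log2 difference of 0.84 ± 0.43 (adjusted p = 0.654, edgeR) was 0.50 without FAPi replicate 3. It overlaps antisense genes. Adamts15 ranged from 2.89 to 22.1 CPM, and Adamts8, which lies 20.1 kb from it, had no count.

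Among the other ADAMTS genes, Adamts10, which is linked to fibrillin microfibrils, had 63.5, 56.1 and 58.5 CPM in DPBS and 132, 118, 63.5 and 73.8 CPM in FAPi libraries. The lowest FAPi and the highest DPBS library were level to 3 digits (log2 difference 0.71 ± 0.35, adjusted p = 0.642, edgeR). Adamts12 had 13.3, 12.1 and 2.26 CPM in DPBS and 3.51, 13.4, 3.38 and 3.91 CPM in FAPi libraries, so the high libraries were found in both groups (-0.61 ± 0.85, and -1.37 without FAPi replicate 2). Adamts18 had 0.358, 4.86 and 5.65 CPM in DPBS and 0.753, 2.46, 0.699 and 0.558 CPM in FAPi libraries. It had the lowest estimate of the members, -1.69 ± 1.09 (adjusted p = 0.727), and its DPBS libraries differed more from each other than the FAPi libraries did. Adamts6 stayed at or under 2.07 CPM. ADAMTS genes summed to 802 to 904 CPM in DPBS and 790 to 968 CPM in FAPi libraries, and of the 12 tested 6 had a higher and 6 a lower estimate.

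Adamtsl3, an ADAMTS-like matrix protein without a protease part, was the eighth member per kb. It had 52.9, 134 and 228 CPM in DPBS and 120, 278, 188 and 278 CPM in FAPi libraries. The DPBS values alone spread over more than the distance between the group means, 138 ± 87.6 (SD, n = 3) and 216 ± 76.8 CPM (SD, n = 4). The log2 difference was 0.64 ± 0.47 (adjusted p = 0.765, edgeR), 0.25 without DPBS replicate 1 and 1.21 without DPBS replicate 3. Adamtsl4, which binds fibrillin, ranged from 1.95 to 16.6 CPM and Adamtsl5 from 1.54 to 14.0 CPM, both lowest in FAPi replicate 4.

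Of the 15 members with over 3 counts in at least 1 library that were not tested, most owed their counts to 1 or 2 libraries. Mmp28 had 61 counts in DPBS replicate 2 and at most 6 elsewhere, and Mmp21 had 51 counts in DPBS replicate 1 and at most 1 elsewhere. Mmp25, a membrane-type MMP of neutrophils, had 25 counts in FAPi replicate 3 and at most 3 elsewhere. Adam22, which lacks a working catalytic site, had 193 counts in FAPi replicate 1 and 70 in DPBS replicate 1, against at most 6 in the other 5 libraries. Adamts17 had 21 and 34 counts in FAPi replicates 3 and 4 and at most 2 elsewhere. Adam8, known from leukocytes and osteoclasts, had 18, 8 and 9 counts in DPBS and 2, 16, 2 and 0 in FAPi libraries. The osteoclast markers Calcr, Ocstamp, Dcstamp and Oscar had no count, and the 8 of that list summed to 116 to 270 CPM in DPBS and 63.4 to 154 CPM in FAPi libraries. The others of the 15 were Adamtsl1, Adamts3, Adam2, Adam20 and Adam21, with highest values of 5.17, 2.07, 0.717, 0.422 and 1.40 CPM, and Adam3, Adam5, Adam32 and Mmp27.

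Genes that activate, carry or restrain these proteases were followed in fixed lists. Of 25 genes that act on MMPs, 19 were tested. In edgeR 0 were past the threshold, with 12 higher and 7 lower estimates and a median log2 difference of 0.16. The most abundant was Serpine2, an inhibitor of serine proteases that start MMP activation, with DPBS libraries at 4823 ± 518 CPM (SD, n = 3) and FAPi libraries at 5137 ± 502 CPM (SD, n = 4). Bsg, which encodes the MMP inducer basigin, had 467 ± 72.0 and 416 ± 44.9 CPM, and the clearance receptor Lrp1 279 ± 55.1 and 237 ± 42.5 CPM. Of 13 genes that carry or control ADAM proteases, 12 matched a symbol and 9 were tested, with 0 past the edgeR threshold, 6 higher and 3 lower estimates and a median of 0.55. Rhbdf1, which encodes the iRhom protein that brings Adam17 to the cell surface, had 168, 74.5 and 114 CPM in DPBS and 478, 126, 233 and 179 CPM in FAPi libraries. The groups overlapped (log2 difference 1.10 ± 0.46, adjusted p = 0.574, edgeR), and FAPi replicate 1, highest for Adam9, was highest here too. Adam17 itself was highest in DPBS replicate 1, at 52.8 CPM against 35.5 CPM in FAPi replicate 1. Tspan15, a tetraspanin partner of Adam10, had 2.24, 3.38 and 5.37 CPM in DPBS and 3.14, 56.7, 2.45 and 89.6 CPM in FAPi libraries. The 2 high libraries set the estimate of 3.37 ± 1.19, which DESeq2 called (adjusted p = 0.0298) and edgeR did not (adjusted p = 0.514).

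Membrane proteins, most of them known to be shed by Adam10 or Adam17, formed a list of 36, of which 28 were tested. In edgeR 0 were past the threshold, with 19 higher and 9 lower estimates and a median log2 difference of 0.19. The list was written with earlier results of these data known, and whether it differs from other genes was not tested. An unadjusted p under 0.05 (edgeR) was reached by 8.14% of all tested genes. It was reached by 0 of 19 tested genes that act on MMPs and 2 of 9 that control ADAM proteases. Among other metallopeptidases it was 1 of 13, among matrix substrates 2 of 25, and in this list 6 of the 28. Of these 6, 5 were higher in estimate and 1, Notch1, was lower, with 5.55, 6.34 and 2.83 CPM in DPBS and 2.13, 0.646, 0.116 and 0.279 CPM in FAPi libraries (log2 difference -2.61 ± 1.08, adjusted p = 0.574, edgeR). Notch2 had 1771, 2169 and 2752 CPM in DPBS and 2735, 6405, 4307 and 4035 CPM in FAPi libraries, and the Notch ligand Jag1 388, 394 and 543 against 893, 1905, 662 and 844 CPM. The heparan sulfate proteoglycan Sdc4 had 1003, 1165 and 1133 CPM in DPBS and 1445, 3174, 2089 and 2148 CPM in FAPi libraries. FAPi replicate 2 was the highest library for these 3 genes, as it was for Adam10. It also had the lowest TMM factor, 0.841, and the share of all tested genes that were highest in it was not determined. Whether the levels of these genes and of Adam10 are linked was not tested. The adhesion gene Ncam1 had 89.2 ± 3.84 and 213 ± 80.6 CPM (log2 difference 1.26 ± 0.32, adjusted p = 0.462, edgeR). Tnfsf11, which encodes the osteoclast factor RANKL, had 21.5 to 26.3 CPM in DPBS and 25.1 to 187 CPM in FAPi libraries. DESeq2 called this gene (adjusted p = 0.0369).

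Other extracellular metallopeptidases and the matrix proteins that the members cut did not pass either. Of 21 other metallopeptidase genes and their helpers 13 were tested, 8 higher and 5 lower in estimate. Pappa, which cuts IGF-binding proteins, was the most abundant, at 1293 ± 182 CPM in DPBS and 1486 ± 193 CPM in FAPi libraries, and Pcolce, an enhancer of procollagen cleavage, had 554 ± 11.4 and 545 ± 57.8 CPM. Anpep, an aminopeptidase, had 0.951 to 2.06 CPM in DPBS and 3.10 to 9.32 CPM in FAPi libraries (log2 difference 2.20 ± 0.89, adjusted p = 0.563, edgeR). Of 28 matrix substrates 25 were tested, 15 higher and 10 lower in estimate with a median of 0.09. Of the type I collagen genes, whose products Mmp13 cuts and Adamts2 processes, Col1a1 ranged from 1014 to 4695 CPM in DPBS and from 1206 to 5215 CPM in FAPi libraries. Col1a2 ranged from 2567 to 4264 CPM in DPBS and from 2737 to 3129 CPM in FAPi libraries. The aggrecan gene Acan, the substrate of Adamts4 and Adamts5, reached at most 4.47 CPM.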

How the data were processed

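RNA of sorted bone marrow stromal cells was sequenced as paired 150-base reads from libraries made by a modified Smart-seq2 method, per the labels' protocols. The authors deposited raw gene counts per library, made with STAR and HTSeq on build mm10, per the submitters' processing notes. The deposited counts carry the label rmdup. The sources used here do not state the annotation, the strand setting or how duplicate reads were handled. The deposited CPM tables were not used here. Symbols, mm10 coordinates and exon lengths come from GENCODE vM21, which matched 53620 of 53801 gene IDs without version suffixes.

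The test was edgeR 4.0.16 under R 4.3.3 (filterByExpr with minimum count 10, TMM, glmQLFit and glmQLFTest with robust settings) over 12930 genes, with Benjamini-Hochberg adjustment and a threshold of 0.05. Log2 differences are FAPi minus DPBS, and the SE is the absolute log2 difference divided by the square root of F. CPM in the text is TMM-scaled, and 1 count is 0.0896 to 0.140 CPM. The functions were tested on simulated data. Reads without molecular identifiers are not independent molecules. The design text counts 3 and 4 mice, but no label ties a library to a mouse, and p-values measure the spread between these libraries. In no pair of libraries did counts agree within sampling noise.

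Alternatives were DESeq2 1.42.0, limma 3.58.1 voom with sample weights, other scalings, filters and thresholds, a replicate block and each library left out. The members, lists and tests were chosen with earlier results of these data known. Named were all TIMPs, members of at least 20 CPM, the 5 members with the smallest p in each direction and those with a FAPi library far from the others, with up to 4 genes per list by level and 4 by p. Other genes were named after their values were seen. Protein motifs were planned, but protein sequences were not used here.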

Additional observations from a re-analysis of the deposited data

Results flagged for a closer look

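Within the 4 FAPi libraries, each of the 38 tested members was checked for a library whose gap to its nearest neighbour, as a share of the range, exceeds Dixon's critical value. The check marked 9 members, all at their highest library, which is 23.7% of them. For normally distributed values chance marks about 1 in 20 groups. The values checked were CPM without a log transform, and the same check marked 13.4% of all 12930 tested genes, nearly all at the highest library (12.5%). Whether the members differ from other genes in this was not tested. With 3 libraries, the DPBS group could not be checked.

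FAPi replicate 2 was marked at Adam10 (717 CPM, others 382 to 409), Adamts12 (13.4 CPM, others 3.38 to 3.91) and Adamts18 (2.46 CPM, others 0.558 to 0.753). FAPi replicate 4 was marked at Mmp3 (99.9 CPM, others 3.51 to 6.52), Mmp19 (8.52 CPM, others 2.01 to 2.33) and Adam33 (11.2 CPM, others 1.51 to 3.01). FAPi replicate 1 was marked at Adam9 (166 CPM, others 52.8 to 68.1) and Adamts1 (45.6 CPM, others 29.9 to 32.4), and FAPi replicate 3 at Adam23 (19.0 CPM, others 2.37 to 3.23).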

How the results depend on the processing

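No member passed the threshold under any alternative run. Over all genes, against 0 in edgeR, DESeq2 called 84 higher and 51 lower, edgeR without a low-count filter 5 higher and 1 lower, voom with sample weights 1 higher, and an adjusted p under 0.1 gave 1 higher. With each library left out in turn, 0 to 2 genes were higher and 0 to 1 lower, the 2 and the 1 arising without DPBS replicate 3. At an unadjusted p under 0.05 edgeR had 1053 genes, DESeq2 1234 and voom 770. The 30 members tracked gave 446 values under the alternatives, of which 40 had the other sign, in 12 members (Mmp2, Mmp3, Mmp11, Mmp13, Mmp14, Timp3, Timp4, Adam12, Adam17, Adam33, Adamts1 and Adamts5). The smallest adjusted p among these values was 0.232 (Adam28, DESeq2). The ADAMTS median of -0.02 became 0.02 with RLE size factors, and that of all members 0.14 became -0.06 with library totals only. With the replicate block, 0 genes passed and 718 had an unadjusted p under 0.05. Same-numbered libraries had correlations of -0.008, -0.018 and -0.051, so the numbers gave no pairing. At this depth a count of 0 in a single library allows a level there of up to 0.269 to 0.419 CPM, depending on the library. No joint limit was computed for members at 0 in all libraries.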
